A study of Mus musculus with 12 samples.

Results

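Homeobox genes encode transcription factors that bind DNA through a homeodomain, and 47 of them, from the LIM, paired-like, POU, sine oculis, TALE and cut classes, were followed in the cerebellum of mice that lost Eed. The 47 were a list of named genes, chosen with earlier results of these data known. They were found by symbol among the 55385 genes of the deposited table, and all 47 were present. RNA-seq of polyadenylated RNA compared whole cerebellum at postnatal day 14 from wild-type (WT) mice with that of EED-/- conditional knockouts, both on the C57BL/6 strain and with 3 libraries each. The Eed protein is needed by the Polycomb complex PRC2 to set H3K27me3, a histone mark of silenced genes. A Cre driver and the exons removed are not named in the labels. Nor is it stated whether each library is its own animal, and p-values here cover only library-to-library spread.

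LIM factors carry 2 LIM domains beside the homeodomain and act with the adaptor Ldb1 to set the identity of motor neurons, interneurons and other neuron types. POU factors join a POU-specific domain to the homeodomain, sine oculis factors (Six2, Six3, Six4 and Six6) act with Eya co-activators in eye, kidney and muscle development, and TALE factors (Meis, Pbx and Irx) have a longer homeodomain and often bind as partners of Hox proteins. Paired-like factors pattern the head, limb, eye and pituitary, and cut-class factors carry CUT domains as well. Many of these genes are textbook targets of PRC2 in cells where they are silent, and their promoters are often rich in CpG dinucleotides. Some have known places in the cerebellum: Lhx1 and Lhx5 in Purkinje cells, Meis1 in granule neurons, and Lhx2, Lhx9 and Meis2 in the cerebellar nuclei.

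Most of these genes start at CpG-rich promoters. RefSeq promoter windows (GRCm38.p6) were matched for 33 of the 47 genes. Of the called genes whose window held at most 30 bases of annotated UTR, those with the largest rises (Six2 and Pou4f1) and the largest falls (Meis1 and Lhx1) in EED-/- are printed, to show both directions, as the 250 bases before the start, 5′ to 3′, with each CpG in capitals. They are Six2 (chr17:85688255-85688504, minus strand, 26 CpGs), Pou4f1 (chr14:104468000-104468249, minus strand, 47 CpGs), Meis1 (chr11:19018970-19019219, minus strand, 13 CpGs) and Lhx1 (chr11:84525535-84525784, minus strand, 26 CpGs).
Six2: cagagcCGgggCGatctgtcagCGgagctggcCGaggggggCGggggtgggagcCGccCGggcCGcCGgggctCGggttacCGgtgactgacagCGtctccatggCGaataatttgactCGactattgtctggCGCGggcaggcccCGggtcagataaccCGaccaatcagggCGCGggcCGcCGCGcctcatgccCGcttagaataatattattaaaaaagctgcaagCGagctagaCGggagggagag
Pou4f1: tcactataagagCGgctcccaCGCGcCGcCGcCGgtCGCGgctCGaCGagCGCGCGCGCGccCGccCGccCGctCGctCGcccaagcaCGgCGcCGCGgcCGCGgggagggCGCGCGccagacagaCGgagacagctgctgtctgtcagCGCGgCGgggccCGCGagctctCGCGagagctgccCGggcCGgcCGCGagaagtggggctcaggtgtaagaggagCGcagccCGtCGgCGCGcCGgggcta
Meis1: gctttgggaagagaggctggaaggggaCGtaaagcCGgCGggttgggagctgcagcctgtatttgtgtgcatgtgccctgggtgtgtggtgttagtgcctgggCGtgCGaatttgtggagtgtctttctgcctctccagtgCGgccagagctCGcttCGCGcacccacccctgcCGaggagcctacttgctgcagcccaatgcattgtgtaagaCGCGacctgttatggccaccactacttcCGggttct
Lhx1: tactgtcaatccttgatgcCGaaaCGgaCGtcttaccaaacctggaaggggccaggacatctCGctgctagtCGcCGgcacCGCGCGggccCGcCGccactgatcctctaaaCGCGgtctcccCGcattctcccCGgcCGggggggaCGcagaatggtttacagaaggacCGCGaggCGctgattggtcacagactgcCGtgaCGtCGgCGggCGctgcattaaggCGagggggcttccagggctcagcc

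In each gene's most CpG-rich window of 250 bases, the 33 members had a median of 17 CpGs, against 6 over the 27025 genes of the table, and 81.8% of the members against 40.2% of all genes held at least 10. The medians were 18.5 CpGs for the 12 members that rose, 23 for the 4 that fell and 14.5 for the 10 tested members that were not called. CpG content overlapped between members that rose and members that fell: those that rose held 4 (Prrx1) to 47 (Pou4f1) CpGs and those that fell 13 (Meis1) to 41 (Satb1). Lhx9, which was not called, held 4. The homeodomain core TAATTA, which reads the same on both strands, stood in 3 of the 33 windows (9.09%) and in 4.77% of all; the 3 were Uncx, Prrx1 and Otx2. By GENCODE the windows of Uncx and Otx2 lay wholly in annotated UTR (250 bases each) and that of Prrx1 held 60 UTR bases, so these matches are not all before the annotated start. Over the 33 members, 10 windows held more than 30 UTR bases. H3K27me3 at these promoters was not analysed here.

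Each library held 19621814 to 20366173 estimated counts. Eed, which checks the genotype labels, was measured at 20.1, 26.6 and 23.5 CPM in the WT libraries, in the order of replicates 1, 2 and 3 used throughout, and at 11.6, 9.31 and 11.3 CPM in EED-/- (log2 fold change -1.12, SE 0.154, adjusted p = 0.0015). CPM stands for counts-per-million after TMM scaling. The test was edgeR's two-sided quasi-likelihood F test, with p adjusted over all 18091 genes tested. The tissue label held against markers of the cerebellar cortex. Beside the marker counts that follow, 11.7% of all tested genes were higher and 14.1% lower. The summed level of 12 Purkinje cell markers was 4096 to 4930 CPM in WT and 4380 to 5911 CPM in EED-/- libraries, with 1 higher (Ryr1) and 1 lower (Gng13). Granule neuron markers were present in both genotypes, but 11 of 12 were lower in EED-/-, among them Cbln1 and Neurod2, and their sum was 6125 to 7282 CPM in WT and 1243 to 1841 CPM in EED-/- libraries. In bulk RNA, fewer cells of a type and less RNA per cell cannot be told apart. Meningeal fibroblast markers were 8 of 8 higher (361 to 435 CPM in WT and 843 to 1148 CPM in EED-/- libraries), Igf2 and Col3a1 among them, and skeletal muscle markers 11 of 12 higher (6.06 to 7.13 CPM in WT and 88.1 to 136 CPM in EED-/- libraries), Myh8 and Acta1 among them. Of 6 markers of the cerebellar nuclei 4 were higher (Sncg and Nefm had the smallest p) and 1 lower, summing to 1229 to 1348 CPM in WT and 1847 to 2231 CPM in EED-/- libraries. Of 12 markers of brainstem and midbrain neurons 2 were higher (Slc18a2 and Ddc) and 0 lower, summing to 109 to 176 CPM in WT and 226 to 304 CPM in EED-/- libraries. Other libraries stood apart in single genes of that list, singled out after their values were seen. The dopamine neuron genes Slc6a3 and Th read 61.2, 12.9 and 1.47 CPM and 30.9, 12.5 and 8.32 CPM in EED-/-, highest in replicate 1, against 0.667, 0.215 and 0.465 CPM and 7.18, 6.44 and 6.87 CPM in WT. The serotonin neuron genes Tph2 and Slc6a4 read 18.6, 1.93 and 14.7 CPM and 27.8, 1.72 and 16.2 CPM in WT, lowest in replicate 2. These 4 genes were not called. Of 8 choroid plexus markers 0 were called (1253 to 1501 CPM in WT and 829 to 1534 CPM in EED-/- libraries), and 0 of 6 blood markers (258 to 559 CPM in WT and 360.5 to 1782 CPM in EED-/- libraries). None of the 10 retina markers had enough counts to be tested (1.9 to 2.2 CPM in WT and 2.15 to 2.73 CPM in EED-/- libraries). Of 10 pituitary and pineal markers 3 could be tested and 0 were called (7.18 to 10.5 CPM in WT and 5.93 to 6.68 CPM in EED-/- libraries), with Prl and Asmt at 0 in every library.

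Among the homeobox genes it was WT replicate 1 that stood apart from the other two WT libraries in several cases. Six3, a forebrain and eye factor that is also active in the midbrain, read 0.0513, 5.63 and 5.53 CPM in WT and 13.5, 11.3 and 8.22 CPM in EED-/-. WT replicate 1 held 1 Six3 count and the other WT libraries 105 and 107. The divergent transcript Six3os1 read 0, 2.04 and 1.55 CPM in WT, and Tfap2d, a midbrain transcription factor gene singled out after its values were seen, 0, 2.47 and 1.91 CPM. Lhx9 followed the same order, at 1.13, 13.2 and 11.2 CPM in WT and 30.6, 27.2 and 26.9 CPM in EED-/-. Shox2, a paired-like gene active in the midbrain and thalamus, read 3.9, 13.6 and 13.6 CPM in WT and 29.4, 25.4 and 25.9 CPM in EED-/-. Of the 33 members with at least 30 WT counts, these 3 (9.09%) had both other WT libraries at 3 or more times the level of WT replicate 1. The same held for 136 of 17427 tested genes with as many WT counts (0.78%). It was the lowest WT library in 12 of the 17 members called higher (70.6%) and in 48.9% of all genes called higher, a set in which a low WT library is favoured; over all tested genes the share was 40.8%. What set this library apart was not tested. Values without it are given below for Six3, Lhx9, Shox2, Lhx1, Lhx6, Pou4f1 and Pou4f2. Among other members lower in it, Onecut1, Onecut2, Meis2 and Pou3f2 had log2 fold changes of 1.37, 0.50, 1.05 and 0.68 without it. With it they were 1.72, 0.77, 1.18 and 0.83. Onecut1, Meis2 and Pou3f2 were called either way, and Onecut2 was not.

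**Figure D1:**
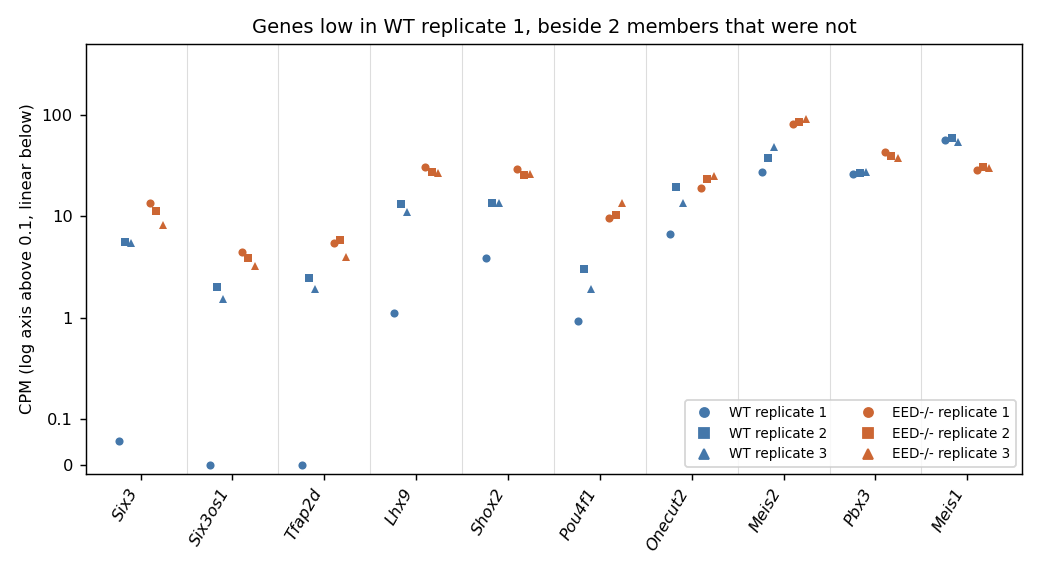
CPM of 8 homeobox genes, Six3os1 and Tfap2d (x axis) in each of the 6 libraries (y axis, log scale above 0.1 and linear below); blue points are WT and orange points EED-/-, with 1 marker shape per replicate number. WT replicate 1 lies at 0 for Six3os1 and Tfap2d and far under the other WT libraries for Six3 and Lhx9, while Pbx3 and Meis1 are level across the WT libraries.

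Most of the listed homeobox genes that changed rose in EED-/- cerebellum. The list was chosen with earlier results of these data known, so its shares do not stand for homeobox genes in general. Of 28 other tested genes of the same classes, 9 rose and 6 fell (32.1% and 21.4%). Of the 47 genes 37 had enough counts to be tested; 17 of these rose and 4 fell, while 11.7% of all tested genes were higher and 14.1% lower. The rises ran from Pbx3 at 1.5-fold to Pou4f1 at 5.67-fold and Six2 at 5.74-fold, with Alx1 rising from 1 count in all WT libraries to 36 in all EED-/- libraries. At least 2-fold rises were called for 12 members, against 5.77% of all tested genes. The 4 that fell were Uncx, Meis1, Lhx1 and Satb1. The median log2 change of the tested members was 0.83, against -0.03 over all tested genes. The filter on low counts let 9 members through by their EED-/- libraries only (Six3, Isl1, Six2, Lhx3, Irx4, Irx6, Onecut1, Lhx6 and Alx1). Of these, 4 were called higher, against 34.8% of all genes that passed that way. Passing that way favours a rise, and the median log2 change of the 9 was 1.56. The 4 called (Isl1, Six2, Onecut1 and Alx1) are all among the 12 that rose at least 2-fold. Among the 28 members above the filter's minimum in every WT library, 13 rose and 4 fell, against 10.8% and 15.4% of all such genes. The median log2 change of these 28 was 0.67, against -0.055 over all such genes. Without WT replicate 1, 22 members were higher (11.7% of all genes) and 4 lower (11.1%). Without EED-/- replicate 1, 11 members were higher and 3 lower (6.5% and 7.2% of all genes).

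In 23 tested members every EED-/- library lay above every WT library, and in 5 every one lay below, against 20.1% and 23.8% of all tested genes. Among the 23 were Six3, Isl1, Six2, Irx4, Onecut1, Lhx6 and Alx1. These passed the filter on low counts by their EED-/- libraries only, which favours this pattern. Non-overlap was not counted separately for members above the filter's minimum in every WT library. The genes were also listed by where they are best known to act, with some in more than 1 list. For these lists too, 11.7% of all tested genes were higher and 14.1% lower. Of 14 members described in the cerebellum, all tested, 5 rose (Lhx2, Meis2, Pbx3, Pou3f1 and Pou3f2) and 2 fell (Lhx1 and Meis1), with a median log2 change of 0.49. The share that fell, 14.3%, was near that of all tested genes. Of 8 known from limb, face and kidney mesenchyme, 6 could be tested; Alx1, Alx4, Prrx1, Shox2 and Six2 rose and Uncx fell. Of 10 known from the retina and other eye parts, 5 could be tested and 4 rose (Pou4f1, Pou4f2, Isl1 and Lhx2), while the summed level of retina markers was 1.9 to 2.73 CPM over all libraries. Of 6 known from motor neurons and pituitary, 3 could be tested and 2 rose (Lhx4 and Isl1). Of 6 known from ventral and basal forebrain, 4 could be tested, 0 rose and Satb1 fell.

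**Figure D2:**
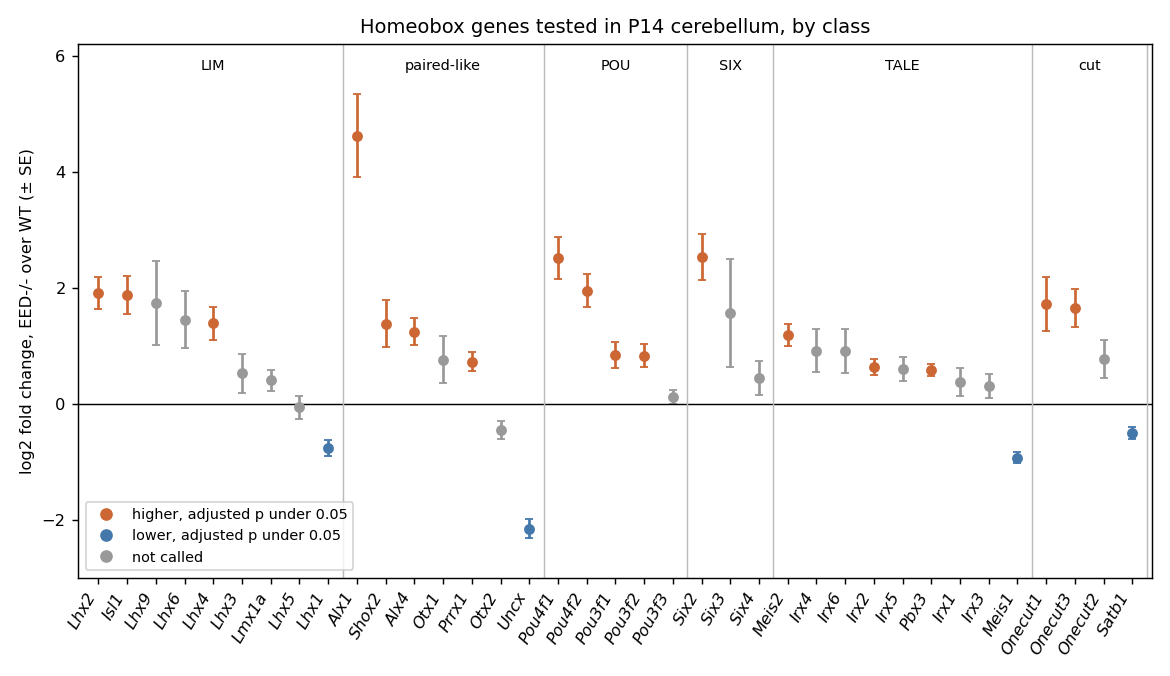
Log2 fold change of EED-/- over WT (y axis, points with ± 1 SE, n = 3 libraries per genotype) for the 37 tested homeobox genes (x axis), grouped by class; orange is called higher, blue called lower and grey not called. Every class holds called rises and genes not called, with Six2 the only sine oculis gene called. The called falls are Lhx1, Uncx, Meis1 and Satb1.

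Among the LIM genes, 3 of 9 tested rose and 1 fell. The background for this and the other classes was 11.7% of all tested genes higher and 14.1% lower. Lhx2 (chromosome 2, 38339281 to 38369733, plus strand), a factor of forebrain, eye and cerebellar nuclei, read 1.28, 2.52 and 2.12 CPM in WT and 9.14, 6.68 and 6.36 CPM in EED-/- (log2 fold change 1.90, SE 0.274, adjusted p = 0.0019). Isl1 (chromosome 13, 116298281 to 116309689, minus strand), a factor of motor and sensory neurons, read 0.667, 0.429 and 0.31 CPM in WT and 1.61, 1.69 and 1.91 CPM in EED-/- (log2 fold change 1.87, SE 0.333, adjusted p = 0.00469). In both genes every EED-/- library lay above every WT library. Lhx4, which acts in motor neuron and pituitary development, read 1.23, 0.858 and 1.6 CPM in WT and 2.56, 3.29 and 3.82 CPM in EED-/- (log2 fold change 1.38, SE 0.289, adjusted p = 0.00967). Its genotypes did not overlap, although the nearest libraries were WT replicate 3 and EED-/- replicate 1. Its relative Lhx3 was at 0.573 ± 0.078 CPM in WT and 0.825 ± 0.21 CPM in EED-/- and was not called (adjusted p = 0.292).

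Lhx1 and Lhx5, the LIM genes of Purkinje cells and other GABAergic neurons, did not give the same call. Lhx1 (chromosome 11, 84518284 to 84525535, minus strand) fell 1.7-fold, from 64.5, 50.6 and 46.6 CPM in WT to 32, 33.2 and 29.954 CPM in EED-/- (log2 fold change -0.77, SE 0.141, adjusted p = 0.00542). WT replicate 1 was the highest of the WT libraries, and without it the log2 fold change was -0.57 (SE 0.104, adjusted p = 0.00785). Lhx5 read 18.7, 12.3 and 12 CPM in WT and 13.3, 15.5 and 12.5 CPM in EED-/-, overlapping between genotypes (log2 fold change -0.06, SE 0.197, adjusted p = 0.852). The difference between the 2 genes was not tested. Lhx1os, a noncoding transcript that starts on the other strand beside Lhx1, was also lower (28.4 ± 3.43 to 21.2 ± 2.21 CPM, adjusted p = 0.049), a call kept in no alternative; strand use in counting is not known from the labels. The Purkinje marker sum overlapped between genotypes, as given above.

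Lhx9, a gene of cerebellar nuclei and midbrain neurons, was not called (log2 fold change 1.73, SE 0.716, adjusted p = 0.136). Without WT replicate 1 its log2 fold change was 1.264 (SE 0.136, adjusted p = 0.000912), a call that the set of all 6 libraries did not give. Lhx6, a factor of forebrain interneurons, was at 0.414 ± 0.309 CPM in WT and 1.14 ± 0.34 CPM in EED-/- without overlap and was not called (adjusted p = 0.063); without WT replicate 1, its highest WT library, the log2 fold change was 2.29 (SE 0.459, adjusted p = 0.0111). Lmx1a, a factor of the roof plate and of unipolar brush cells, was at 3.03 ± 0.0955 CPM in WT and 4 ± 0.443 CPM in EED-/- (adjusted p = 0.146), again with every EED-/- library above the WT libraries. The LIM genes left, Isl2 and Lhx8, had too few counts to be tested and follow with the low-count genes.

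Of the 7 tested paired-like genes 4 rose and 1 fell. Those that rose are known from mesenchyme of the head and limbs or from neurons outside the cerebellum. Alx1, a gene of craniofacial mesenchyme, had 0, 0 and 1 counts in WT replicates 1, 2 and 3 and 12, 12 and 12 in the EED-/- replicates, a ratio of 32.9 (95% counting interval 5.55 to 1337), and was called higher with an adjusted p of 0.00259. Such intervals cover counting error only. Alx4 (chromosome 2, 93642384 to 93681339, plus strand), of limb and craniofacial mesenchyme, read 4.05, 2.52 and 2.48 CPM in WT and 6.86, 8 and 6.56 CPM in EED-/- (log2 fold change 1.24, SE 0.23, adjusted p = 0.00575). Prrx1, a broad marker of limb and head mesenchyme, rose from 10.4 ± 2.08 to 17.2 ± 0.236 CPM (adjusted p = 0.0135), a call lost without EED-/- replicate 1 or WT replicate 3 (adjusted p up to 0.0564). All 3 had no overlap between genotypes. The meningeal fibroblast and skeletal muscle marker sums given above were also higher in EED-/-, and their part in these rises was not tested.

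Shox2 (chromosome 3, 66971727 to 66981771, minus strand) rose 2.6-fold (log2 fold change 1.38, SE 0.402, adjusted p = 0.0416). Its call was lost in 7 of 13 alternatives, including without EED-/- replicate 1, 2 or 3 or WT replicate 2 or 3, with adjusted p up to 0.219. Without WT replicate 1 its log2 fold change was 1.04 (SE 0.127, adjusted p = 0.00153). The brainstem and midbrain marker sum given above was higher in EED-/-, and its part in the levels of Shox2 and Lhx9 was not tested. Uncx (chromosome 5, 139543494 to 139548179, plus strand), a paired-like gene of somites and of several neuron types, fell 4.46-fold, the largest fall of the 47 genes. It read 33, 26.7 and 30.6 CPM in WT and 6.96, 7.9 and 5.38 CPM in EED-/- (log2 fold change -2.16, SE 0.17, adjusted p = 0.000122), so that every EED-/- library lay far under every WT library. Otx2, which marks choroid plexus and posterior granule cell progenitors, read 18.4, 24 and 17.6 CPM in WT and 16.1, 13.6 and 13.9 CPM in EED-/-. Every EED-/- library of Otx2 lay just under the WT libraries, but the gene was not called (adjusted p = 0.062); choroid plexus markers were not called either. Otx1 read 1.8, 1.07 and 1.6 CPM in WT and 3.79, 2.54 and 1.22 CPM in EED-/-, with EED-/- replicate 3 inside the WT range. It was not called (adjusted p = 0.211), and without that library its adjusted p was 0.0452.

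**Figure D3:**
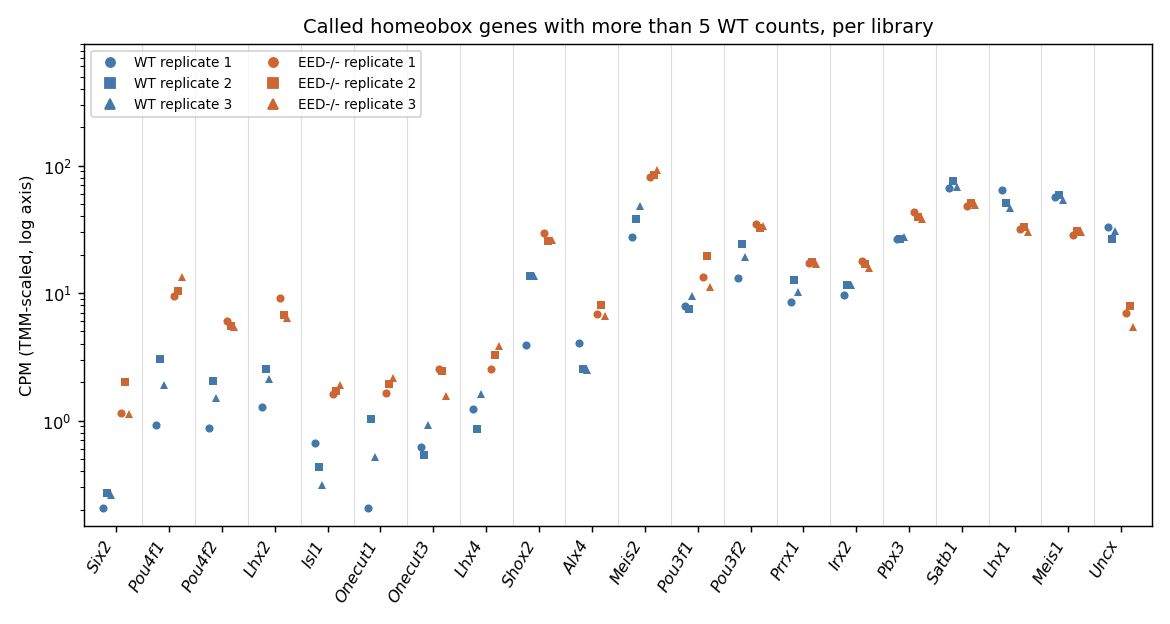
CPM per library (y axis, log scale) for the 20 called homeobox genes with more than 5 WT counts (x axis, ordered by log2 fold change from the largest rise to the largest fall); blue points are the 3 WT and orange points the 3 EED-/- libraries. The genotypes do not overlap in any of the 20, a pattern favoured by showing only called genes. Isl1, Six2 and Onecut1 also passed the filter on low counts by their EED-/- libraries only. WT replicate 1 is the lowest point of Shox2, Onecut1 and Pou4f1.

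POU genes rose in 4 of 5 tested cases. The POU4 (Brn3) genes are known from sensory neurons, retinal ganglion cells and hair cells. Pou4f1 (chromosome 14, 104461676 to 104467999, minus strand) read 0.923, 3.06 and 1.91 CPM in WT and 9.56, 10.4 and 13.5 CPM in EED-/- (log2 fold change 2.50, SE 0.364, adjusted p = 0.00226). Pou4f2 (chromosome 8, 78433010 to 78436645, minus strand), best known from retinal ganglion cells, read 0.872, 2.04 and 1.5 CPM in WT and 6.06, 5.55 and 5.38 CPM in EED-/- (log2 fold change 1.94, SE 0.285, adjusted p = 0.00208). WT replicate 1 was the lowest library in both, and both rose without it too, with log2 fold changes of 2.22 (SE 0.26, adjusted p = 0.00127) and 1.73 (SE 0.222, adjusted p = 0.00189). The brainstem and midbrain marker sum given above was higher in EED-/-, and its part in the rises of Pou4f1 and Pou4f2 was not tested. Pou4f3, the hair cell factor, had 0, 1 and 4 counts in WT and 10, 12 and 12 in EED-/- and was not tested.

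The POU3 (Brn and Oct6) genes, which act in neural progenitors, neurons and Schwann cells, had higher CPM in WT and smaller log2 fold changes. Pou3f2 (chromosome 4, 22482780 to 22488366, minus strand) read 13.2, 24.4 and 19.3 CPM in WT and 35, 32.3 and 33.8 CPM in EED-/- (log2 fold change 0.83, SE 0.2, adjusted p = 0.0173). Pou3f1 read 7.9, 7.51 and 9.41 CPM in WT and 13.4, 19.6 and 11.2 CPM in EED-/- (log2 fold change 0.83, SE 0.219, adjusted p = 0.024). The genotypes did not overlap in either gene, but Pou3f1 lost its call in 5 of 13 alternatives, among them without EED-/- replicate 1 or 2 or WT replicate 2 or 3. Pou3f2 lost its call without EED-/- replicate 1 or WT replicate 3, the 2 genes reaching adjusted p up to 0.0697 and 0.0649. Pou3f3 was at 55.1 ± 4.93 CPM in WT and 59.6 ± 3.88 CPM in EED-/-, overlapping between genotypes (adjusted p = 0.509).

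Among the sine oculis genes Six2, a gene of kidney and craniofacial progenitors, was the only 1 of 3 tested to be called. Six2 (chromosome 17, 85684277 to 85688274, minus strand) read 0.205, 0.268 and 0.258 CPM in WT and 1.14, 2.02 and 1.13 CPM in EED-/- (log2 fold change 2.52, SE 0.394, adjusted p = 0.00269). The WT libraries held 14 of its counts in all and the EED-/- libraries 90, with EED-/- replicate 2 the highest. Its neighbour Six3 was not called over all libraries (log2 fold change 1.56, SE 0.93, adjusted p = 0.278). Without WT replicate 1 the log2 fold change of Six3 was 1.03 (SE 0.226, adjusted p = 0.0156). Six4, a gene of muscle and sensory precursors, was at 1.99 ± 0.451 CPM in WT and 2.71 ± 0.762 CPM in EED-/- and overlapped between genotypes (adjusted p = 0.299).

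Meis1 and Meis2, close TALE relatives, were called in opposite directions. Meis1 (chromosome 11, 18879817 to 19018985, minus strand), a gene of granule neurons and their progenitors, read 57, 59.2 and 53.8 CPM in WT and 28.8, 30.4 and 30.003 CPM in EED-/- (log2 fold change -0.93, SE 0.102, adjusted p = 0.000544). Meis2 (chromosome 2, 115863064 to 116065839, minus strand), of cerebellar nuclei and midbrain, read 27.4, 38 and 48 CPM in WT and 81.1, 84.4 and 92.1 CPM in EED-/- (log2 fold change 1.18, SE 0.189, adjusted p = 0.003). Neither gene overlapped between genotypes, and both kept their calls in all 13 alternatives. The granule neuron marker sum was lower and that of the cerebellar nuclei was higher in EED-/-, as given above, and their part in these changes was not tested. Pbx3, a binding partner of Meis and Hox proteins, rose, with 26.8 ± 0.534 CPM in WT and 40.1 ± 2.63 CPM in EED-/- (log2 fold change 0.58, SE 0.105, adjusted p = 0.00517).

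The 6 Iroquois (Irx) genes lie in 2 clusters and take part in neural patterning and heart development. Irx2 (chromosome 13, 72628820 to 72634198, plus strand) read 9.59, 11.6 and 11.6 CPM in WT and 17.8, 17 and 15.8 CPM in EED-/- and was the only Irx gene called over all 6 libraries (log2 fold change 0.62, SE 0.138, adjusted p = 0.0122); without EED-/- replicate 1 its adjusted p was 0.0624. On the same chromosome Irx1 was at 8.94 ± 0.525 CPM in WT and 11.6 ± 3.94 CPM in EED-/- (adjusted p = 0.298), and Irx4 at 0.821 ± 0.356 CPM in WT and 1.55 ± 0.24 CPM in EED-/- (adjusted p = 0.107). In the chromosome 8 cluster the log2 fold changes were 0.30 for Irx3, 0.59 for Irx5 and 0.90 for Irx6, with adjusted p of 0.329, 0.0653 and 0.117. Irx5 and Irx4 did not overlap between genotypes, and Irx5 was called when WT replicate 2 was left out, after upper-quartile scaling and when only library size was used. Irx1 was called higher without EED-/- replicate 3 (adjusted p = 0.0328) and Irx6 without WT replicate 2 (adjusted p = 0.0494). Crnde, a noncoding transcript that starts on the other strand beside Irx5, rose from 1.05 ± 0.355 to 2.17 ± 0.247 CPM (adjusted p = 0.0317), a call lost in 7 of 13 alternatives, among them DESeq2 and without EED-/- replicate 1, 2 or 3 or WT replicate 1 or 3 (adjusted p up to 0.111).

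In the cut class the Onecut genes and Satb1 went different ways. Onecut1 (Hnf6), a gene of liver, pancreas, retina and some brainstem neurons, read 0.205, 1.02 and 0.517 CPM in WT and 1.66, 1.93 and 2.15 CPM in EED-/- (log2 fold change 1.72, SE 0.46, adjusted p = 0.026). It lost its call in 4 of 13 alternatives, without any 1 EED-/- library or WT replicate 3, with adjusted p up to 0.0929. Onecut3 read 0.616, 0.536 and 0.93 CPM in WT and 2.56, 2.45 and 1.57 CPM in EED-/- (log2 fold change 1.65, SE 0.329, adjusted p = 0.00793) and kept its call in all 13. Onecut2 read 6.67, 19.5 and 13.6 CPM in WT and 19, 23.3 and 25.3 CPM in EED-/-, overlapping through WT replicate 2 and EED-/- replicate 1 (adjusted p = 0.134). It was called higher in 3 of 13 alternatives, among them DESeq2 (adjusted p = 0.0417) and without WT replicate 2 (adjusted p = 0.0255). Satb1 (chromosome 17, 51736187 to 51833290, minus strand), a chromatin organiser of T cells and neurons, read 66.9, 76 and 67.9 CPM in WT and 48.2, 50.6 and 48.8 CPM in EED-/- (log2 fold change -0.51, SE 0.104, adjusted p = 0.00835). Its genotypes did not overlap, and without EED-/- replicate 1 its adjusted p was 0.0526.

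A further 10 members had too few counts to be tested, and most of their counts were in EED-/- libraries. Gsc (goosecoid), a gene of the embryonic organiser and head mesenchyme, had 0, 0 and 0 counts in WT and 12, 8 and 8 in EED-/-, at least 8.54-fold higher taking a floor of 3 counts summed over WT. Pitx1, of hindlimb and pituitary, had 1, 0 and 0 counts in WT and 17, 19 and 5 in EED-/-, a ratio of 37.5 (95% counting interval 6.37 to 1518). Isl2, of motor neurons, had 0, 2 and 1 counts in WT and 9, 16 and 9 in EED-/-, a ratio of 10.4 (95% counting interval 3.26 to 52.8). For these 3 genes every EED-/- library lay above every WT library, and the EED-/- counts were between 5 and 19 per library. Six6, an eye and pituitary gene, had 0, 0 and 0 counts in WT and 9, 3 and 4 in EED-/-, at least 4.88-fold higher. With all genes that had at least 1 count in the fit, Gsc, Pitx1, Isl2, Pou4f3 and Six6 were called higher (adjusted p = 0.00016, 7.52e-05, 0.00186, 0.00912 and 0.00669). The remaining untested members were not called there. In that fit 22 of the 47 members were higher, against 6.57% of all genes. That 6.57% covers genes of every level, and no share was taken for low-count genes alone. With DESeq2, Gsc, Pitx1 and Isl2 were also called (adjusted p = 0.00407, 0.00494 and 0.0299), Pou4f3 was not (adjusted p = 0.0722) and Six6 received no adjusted p. The authors' deposited table did not call Pou4f3 or Six6 either.

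**Figure D4:**
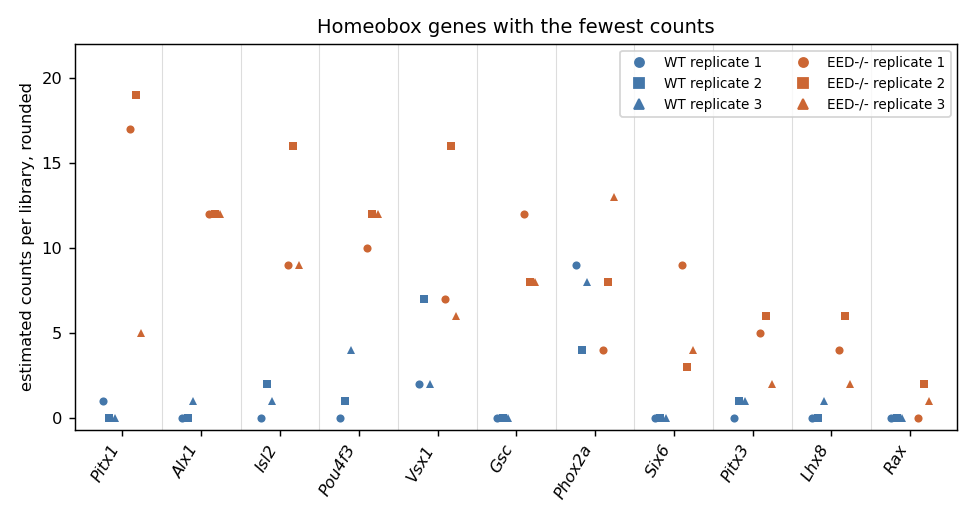
Estimated counts per library, rounded (y axis), for the 10 homeobox genes with too few counts to be tested and Alx1 (x axis); blue points are the 3 WT and orange points the 3 EED-/- libraries. WT libraries hold 0 to 2 counts of Pitx1, Alx1, Isl2, Gsc, Six6, Pitx3, Lhx8 and Rax, and Phox2a spreads alike in both genotypes.

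The other low-count genes were fewer in counts or overlapped. Lhx8, of basal forebrain neurons, had 0, 0 and 1 counts in WT and 4, 6 and 2 in EED-/-, a ratio of 11 (95% counting interval 1.62 to 469). Pitx3, of midbrain dopamine neurons and lens, had 0, 1 and 1 counts in WT and 5, 6 and 2 in EED-/-, a ratio of 5.95 (95% counting interval 1.35 to 54.3). Vsx1, of retinal bipolar cells, overlapped between genotypes, with 2, 7 and 2 counts in WT and 7, 16 and 6 in EED-/-. Phox2a, of noradrenergic and cranial motor neurons, had 9, 4 and 8 counts in WT and 4, 8 and 13 in EED-/-, overlapping throughout. Rax, an early eye and hypothalamus gene, had 0, 0 and 0 counts in WT and 0, 2 and 1 in EED-/-, at or under the floor of 3 counts in both groups, so a difference was not detectable at this depth and no fold is given.

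Levels were compared between genes per length. Per kilobase of merged exon (RPKM), Lhx1 was the most abundant of the 47 in WT, at 13.2 in WT and 7.78 in EED-/-, and Uncx followed with 9.6 in WT and 2.15 in EED-/-. Pou3f3 came next in WT, with 7.44 in WT and 8.04 in EED-/-, then Meis1 with 5.38 in WT and 2.82 in EED-/- and Lhx5 with 5.34 in WT and 5.11 in EED-/-. In EED-/- the highest were Shox2 (3.13 in WT and 8.13 in EED-/-) and Pou3f3, then Lhx1, with Meis2 (3.14 in WT and 7.13 in EED-/-) and Pbx3 (4.39 in WT and 6.56 in EED-/-) next. The 4 genes that fell were all at 3.69 RPKM or more in WT. Of the 17 that rose, Isl1, Onecut1, Onecut3, Lhx4, Six2 and Alx1 were still at 0.674 RPKM or less in EED-/-.

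The authors' deposited table gave the same direction for the called members. At an adjusted p under 0.05 the authors' deposited table had 21 members higher and 4 lower, against 6.04% and 6.7% of its genes with a p-value. These were the 17 and 4 called here, with Onecut2, Isl2, Pitx1 and Gsc besides.

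Further genes of the same classes and their cofactors were taken from textbook class membership. Of 41 other LIM, paired-like, POU, sine oculis, TALE and cut genes 40 were found by symbol and 28 could be tested. Of these 28, 9 rose and 6 fell (32.1% and 21.4%), against 11.7% and 14.1% of all tested genes. Their median log2 change was 0.29, against -0.03 over all genes. Dmbx1, of midbrain, rose 2.59-fold, Otp, of hypothalamic neurons, 2.37-fold, and Mkx, of tendon, 1.82-fold. Pou3f4 rose 1.87-fold. Mkx lost its call without EED-/- replicate 1 or WT replicate 3, and Pou3f4 without EED-/- replicate 1 (adjusted p up to 0.0643 and 0.0521). Sebox fell from 6.85 ± 1.74 to 0.624 ± 0.234 CPM (10.9-fold, adjusted p = 0.000251). Pknox1, which like Meis1 pairs with Pbx proteins, fell 1.8-fold, Cux1 1.5-fold and Pou2f2 1.74-fold. Prrx2, a relative of Prrx1, rose 3.11-fold, a call lost in 5 of 13 alternatives, among them without EED-/- replicate 1 or 2 or WT replicate 2 or 3 (adjusted p up to 0.108).

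Of the 10 LIM cofactors 4 rose and 2 fell, and of the 6 sine oculis cofactors 3 rose and 1 fell. Over both lists 43.8% rose and 18.8% fell, against 11.7% and 14.1% of all tested genes. The share that fell was near that of all tested genes. The adaptor Ldb1, which LIM factors need to form complexes, fell from 109 ± 5.47 to 80.0 ± 6.8 CPM (adjusted p = 0.0185), while its relative Ldb2 rose from 7.32 ± 2 to 18.6 ± 1.5 CPM (adjusted p = 0.00243). Ssbp3, which stabilises Ldb1, fell 1.9-fold, and the LIM-only gene Lmo3 rose 2.48-fold. The Eya co-activators of sine oculis factors rose for Eya1, from 5.99 ± 0.0867 to 14.7 ± 0.874 CPM (adjusted p = 0.000423), and for Eya4, by 3.89-fold. The higher cofactors numbered 4 instead of 7 without WT replicate 2 or 3 or EED-/- replicate 1 or 2, and the lower ones 1 instead of 3 without EED-/- replicate 1 or WT replicate 3 and when counts were scaled by upper quartile or library size. Ldb1 lost its call in 6 of 13 alternatives, among them both scalings and without EED-/- replicate 1 or 3 or WT replicate 3 (adjusted p up to 0.0883). The calls of Ssbp3, Ldb2, Lmo3, Eya1 and Eya4 held in all 13.

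The nearest tested genes around the homeobox genes were examined as well. Each tested member's nearest tested protein-coding gene on either side, outside these classes, gave 64 neighbours, of which 13 were higher and 2 lower (20.3% and 3.13%, against 11.7% and 14.1% of all genes). Their median log2 change was 0.12. The metalloprotease gene Mmp2, a neighbour of Irx3, Irx5 and Irx6 at 146335 bases from the closest of them, rose from 7.59 ± 0.587 to 22.8 ± 1.01 CPM (adjusted p = 0.000138), while those 3 Irx genes were not called. Mmp2 is also known from fibroblasts; the meningeal fibroblast marker sum given above was higher, and its part in this rise was not tested. Spred2, the neighbour of Meis1 at 905390 bases, fell from 113 ± 23.3 to 53.9 ± 3.57 CPM (adjusted p = 0.002). The others with the smallest p, all higher, were Rxrg at 49614 bases from Lmx1a, Cd82 at 179244 from Alx4, Fmo1 at 378509 from Prrx1 and Tmem182 at 1838881 from Pou3f3, so that a nearest tested gene could lie far away. Of 10 tested genes on the other strand that overlap a member or start within 10 kb of its start, Crnde was higher and Lhx1os lower. These shares, 10% each, were near the 11.7% and 14.1% of all tested genes. Leaving out EED-/- replicate 1, 2 or 3 or WT replicate 3 left 6 to 8 higher neighbours.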

How the data were processed

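RNA-seq of 6 cerebellum libraries (3 WT, 3 EED-/-) was analysed; the 6 ChIP-seq samples of the series were not used here. The deposited gene table holds estimated counts, per the file headers. Of all values in each library, zeros included, 22.5 to 23.6% were not whole (tolerance 1e-06). Per the submitters' processing notes, the tools included Salmon 1.1.0 and DESeq2 1.26.0 beside Trimmomatic 0.36 (roles and order are not stated), and the builds were GRCm38 and mm10. The authors' deposited comparison table gives a mean signal, a log2 fold change, a test score (the statistic) and p-values, used only to set calls side by side.

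Estimated counts were rounded and tested with edgeR 4.0.16 (R 4.3.3; TMM, low-count filter, robust quasi-likelihood F test, genotype only), with Benjamini-Hochberg adjustment over 18091 genes and a threshold of 0.05. Totals ran from 19621814 to 20366173, which leaves genes of a few counts with wide intervals. Positions are GENCODE M21 (GRCm38), matched by Ensembl ID. All 47 genes were named, with at most 12 called other homeobox genes, 6 called cofactors, neighbours or partners and 2 called genes per marker list, by smallest adjusted p; a few of the other homeobox genes that meet this rule are not reported here. The members and lists were chosen with earlier results of these data known. Alternatives were other scalings, DESeq2 1.42.0, limma-voom (limma 3.58.1), no filter, the replicate number as a block and each library left out. Scripts were tested on simulated data.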

Additional observations from a re-analysis of the deposited data

How the results depend on the processing

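Of the 17 members that rose, 11 kept their call in all 13 alternatives, as did 3 of the 4 that fell and 8 of the 16 not called; no member changed sign with a call. Members higher numbered 17 with RLE size factors, 19 after upper-quartile scaling, 18 when only library size was used, 21 with DESeq2, 18 with limma-voom and 22 without the filter. Leaving out 1 library gave 11 to 22 members higher and 3 to 4 lower, 1205 to 2176 of all genes higher and 1335 to 2476 lower, 3 to 10 other homeobox genes higher and 4 to 6 lower, 4 to 7 cofactors higher and 1 to 2 lower, 6 to 10 neighbours higher and 1 to 2 lower, 0 to 2 partners higher and 0 lower, and Eed at -1.18 to -1.03. These fits have fewer samples. Cofactors lower numbered 1 after upper-quartile scaling and 1 when only library size was used. Partners higher numbered 2 with either of these and without the filter, and partners lower 0 in every alternative; the cause was not tested. Upper-quartile scaling moved the median of all genes by 0.117 and the share of calls that were higher from 45.5% to 61.3% (58.6% with library size alone), while that of member calls stayed between 77.8% and 84.6%. Same-numbered WT and EED-/- libraries did not deviate together (r of 0.0276, -0.233 and -0.00125), and not every library correlated best with its own number. With the replicate block 16 members were higher and 4 lower, 1505 and 1706 of all genes, 4 cofactors higher and 1 lower, and 0 partners in either direction. Under that block Onecut2 was called (adjusted p = 0.0399), and Shox2 (0.0698) and Pou3f1 (0.0511) were not.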
